A study of Mus musculus with 5 samples.

Results

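The members described here were 10 genes of stromal cytokine output and of the control of the transcription factor NF-kappaB, chosen by symbol: Il33, Il6, Csf1, Lif, Tnfrsf21, Nfkb1, Nfkb2, Relb, Nfkbia and Tnfaip3. All 10 were among the 27998 genes shared by the 5 count tables, and all 10 passed the filter on low counts in fibroblasts, among 9834 genes tested. The cells came from spinal cords of Col1a1GFP reporter mice on a C57/BL6 background and were sorted for GFP, which Col1a1, a collagen gene of fibroblasts, drives in this strain. EAE 1 and EAE 2 came from mice with experimental autoimmune encephalomyelitis (EAE), in which the immune system attacks myelin. Healthy 1, Healthy 2 and Healthy 3 came from mice without EAE. Every group carried the reporter, and only cells bright enough for the sort were seen. No source used here gives age, day of disease or the number of animals behind a library. The p-values therefore stand for the spread between libraries only, and some of that spread may be technical. Because libraries are few, the tests estimate a gene's spread with help from the other genes. A very small p is therefore no measure of how well an effect repeats.

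NF-kappaB is a family of paired DNA-binding proteins that rest in the cytoplasm, bound by inhibitors of the I-kappaB family. Signals from tumour necrosis factor, interleukin-1 or pattern receptors destroy the inhibitor, and the freed pair enters the nucleus and switches on cytokine genes. It also switches on its own inhibitors, which end the response. In the central nervous system, fibroblasts of the meninges and of vessel sheaths and the mural cells of the vessel wall are among the non-immune cells that can answer such signals with cytokines.

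The promoters of the members were searched for the letters of the kappaB consensus, the motif that NF-kappaB is known to bind. The RefSeq table (build GRCm38.p6) held 12 promoters of 8 members. The kappaB consensus, searched on both strands over the 250 bases before each start, occurred in 7 of these promoters, which belonged to 5 members: Csf1, Il6, Nfkb2, Nfkbia and Tnfaip3. It occurred in 3.90% of all 32851 promoters of the table. No match was found in the windows of Il33, Lif and Tnfrsf21. A match is a description of letters and not a measured binding site. The last 150 bases before the start are shown for 4 members with a match and for Il33 and Tnfrsf21, on which most of the results turn. Capitals mark the consensus on either strand, and in Nfkb2 a pair of matches on opposite strands and a shifted one overlap.
Il6, chr5:30012964-30013113, plus strand: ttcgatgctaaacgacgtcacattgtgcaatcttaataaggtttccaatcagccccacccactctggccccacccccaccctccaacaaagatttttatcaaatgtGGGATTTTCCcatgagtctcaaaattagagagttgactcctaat
Nfkb2, chr19:46304587-46304736, plus strand: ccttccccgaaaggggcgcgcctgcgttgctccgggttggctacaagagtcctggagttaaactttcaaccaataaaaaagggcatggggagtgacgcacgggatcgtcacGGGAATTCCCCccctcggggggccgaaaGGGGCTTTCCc
Nfkbia, chr12:55492648-55492797, minus strand: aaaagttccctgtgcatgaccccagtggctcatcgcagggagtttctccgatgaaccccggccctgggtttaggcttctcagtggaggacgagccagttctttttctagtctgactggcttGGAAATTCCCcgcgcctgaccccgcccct
Tnfaip3, chr10:19015411-19015560, minus strand: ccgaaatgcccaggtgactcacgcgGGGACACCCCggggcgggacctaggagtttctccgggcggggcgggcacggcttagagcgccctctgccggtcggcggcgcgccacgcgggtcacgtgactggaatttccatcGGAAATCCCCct
Il33, chr19:29924963-29925112, plus strand: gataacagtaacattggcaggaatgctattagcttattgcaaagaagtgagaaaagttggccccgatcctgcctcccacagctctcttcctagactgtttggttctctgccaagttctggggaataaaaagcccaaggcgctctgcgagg
Tnfrsf21, chr17:43016405-43016554, plus strand: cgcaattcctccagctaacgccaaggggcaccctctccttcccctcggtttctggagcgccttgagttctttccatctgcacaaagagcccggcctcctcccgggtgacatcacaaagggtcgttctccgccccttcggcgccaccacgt
The Il6 match lay 44 to 35 bases before the start, and the match of Nfkbia lay 29 to 20 bases before it. Nfkb2 had further matches 11 to 2 bases before the start, and Tnfaip3 had matches 125 to 116 and 12 to 3 bases before it.

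Before any result, a limit of the libraries has to be given. Healthy 1 shared 1239 cell barcodes with EAE 1 and 996 with Healthy 2, and EAE 1 shared 683 with Healthy 2. Each such barcode was counted only in the library where its UMI total was highest, which removed 2 barcodes of EAE 1, against 1549 of Healthy 1 and 684 of Healthy 2, and none of EAE 2 or Healthy 3. Of 7205 barcodes 4970 were counted once and 4678 passed the cell filter. A fibroblast gate (at least 3 UMIs from at least 2 of 6 marker genes, and no other class) held 1483 and 967 barcodes of EAE 1 and EAE 2, against 641, 380 and 340 of Healthy 1 to 3. Their summed UMIs were 7372290 and 5190395 in EAE, against 964961, 1237806 and 1428414 in Healthy, and the median UMI count per cell was 4488 and 4704, against 1258, 3160.5 and 4245. Levels are given as CPM, the UMIs of a gene per 1000000 UMIs of the summed cells. The fibroblast markers reached 29497 and 27426 CPM in the EAE gates, against 31118, 45109 and 34484 CPM in the Healthy gates. These 6 genes define the gate, so their presence in every library is no check of what the cells are. Healthy 1 stood apart from the other Healthy libraries in genes that were high in EAE. Saa3, an acute-phase protein gene, had 4914 and 1604 CPM in EAE 1 and EAE 2, against 489 in Healthy 1, 37.2 in Healthy 2 and 0 in Healthy 3. Lcn2, which encodes an iron-carrier-binding protein, had 1160 and 224, against 210, 6.46 and 0. For this reason the EAE effects in fibroblasts, in subsets of them and in the pathway lists are given with and without Healthy 1. Healthy 1 was chosen by genes high in EAE, so leaving it out favours rises in such genes. The tests of EAE over Healthy held a batch term, with EAE 1, Healthy 1 and Healthy 2 in the first batch and EAE 2 and Healthy 3 in the second. A fit without EAE 1 therefore sets EAE 2 against Healthy 3 alone. Fits without EAE 2 and without Healthy 3 both set EAE 1 against Healthy 1 and Healthy 2, so they are not separate results.

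In fibroblasts, 1 member fell and 1 rose in EAE when all 5 libraries were used: the alarmin gene Il33 was 2.78-fold lower and the death receptor gene Tnfrsf21 was 3.18-fold higher. The other 8 members did not pass the test. Over all 9834 genes tested, 8.95% were higher and 9.51% lower in EAE (edgeR's quasi-likelihood test on UMI sums per library with a batch term, Benjamini-Hochberg adjusted p under 0.05), so 1 of 10 in each direction lay near the background. The median log2 fold change of the members was 0.76, beside 0.00 for all genes. Both EAE libraries were above all Healthy libraries in 6 members, against 27.8% of all genes, and below them in 1 member, against 17.8%. A sum over cells cannot tell fewer cells of a type from less RNA per cell.

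**Figure D1:**
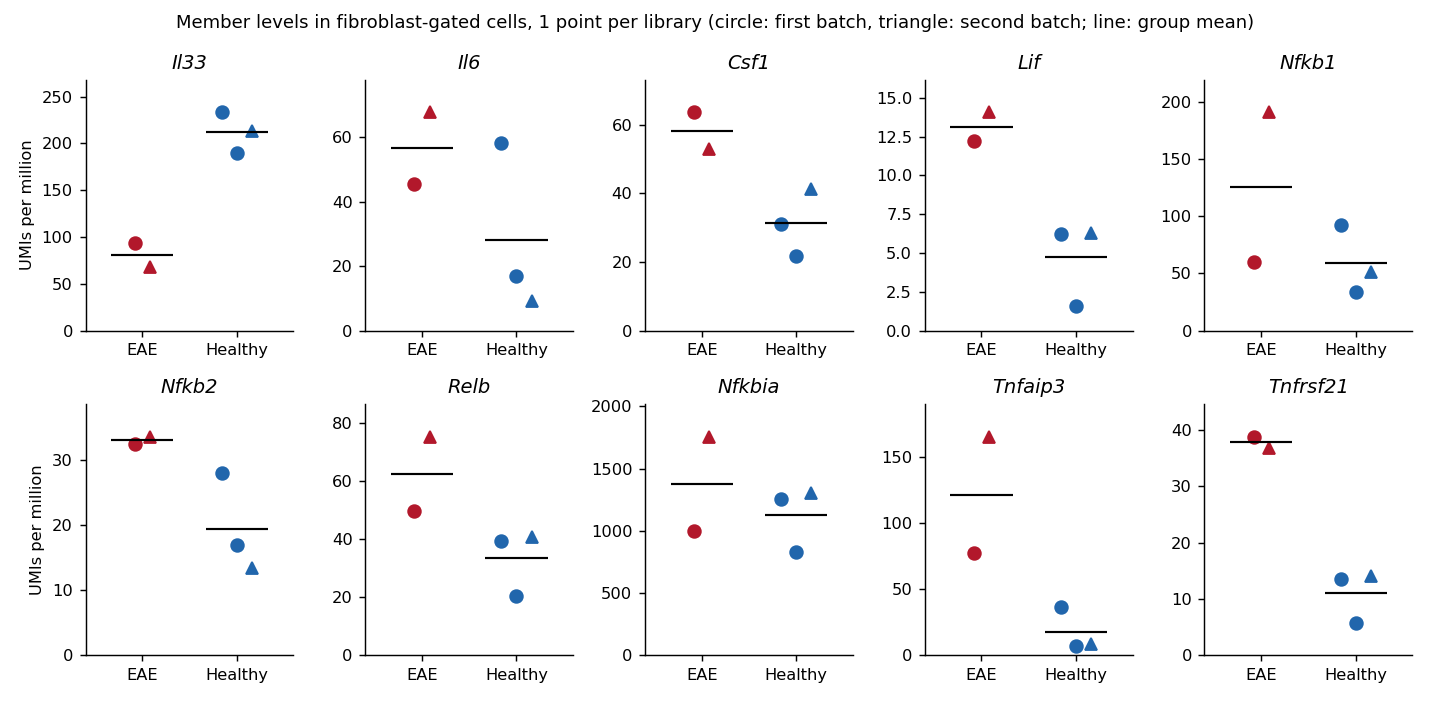
CPM (y axis) of the 10 members in fibroblast-gated cells, with EAE libraries in red and Healthy libraries in blue, 1 point per library, circles for the first batch and triangles for the second, and a line at each group's mean. Il33 was lower in EAE (68.0 and 93.5) than in every Healthy library (190 to 233), while Tnfrsf21, Tnfaip3, Lif, Csf1, Nfkb2 and Relb were higher in both EAE libraries than in all Healthy ones.

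Il33 encodes interleukin-33, an alarmin kept in the nucleus of stromal cells and released when they are damaged, which acts on type 2 lymphoid cells, regulatory T cells and mast cells. It had 93.5 and 68.0 CPM in EAE 1 and EAE 2, against 233, 190 and 214 in Healthy 1 to 3. The groups did not overlap, and the means were 80.8 ± 18.0 in EAE (SD, n = 2) and 212 ± 21.7 in Healthy (SD, n = 3). The log2 fold change was -1.47 (SE 0.21), with an adjusted p of 0.000847 by edgeR's quasi-likelihood test. The fall was seen inside each batch, by 1.18 (log2) among libraries of the first and by 1.65 among those of the second. It passed the test in all 22 alternatives, from -1.73 to -1.24, and without Healthy 1 it was -1.43 (SE 0.19, adjusted p 2.07e-12 by edgeR).

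Fewer cells held an Il33 UMI in EAE. Cells with at least 1000 UMIs were thinned to that depth, and shallower cells were left out. This kept 1483 and 921 fibroblast-gated cells of EAE 1 and EAE 2, against 396, 361 and 332 of Healthy 1 to 3. In Healthy 1 these were 396 of 641. Of the thinned cells, 6.88% and 6.62% of EAE 1 and EAE 2 held an Il33 UMI, against 16.7%, 17.2% and 16% of Healthy 1 to 3. Without thinning the shares were 20.1% and 19.4%, against 24.3%, 35.5% and 39.1%. Mural cells, where the gene was near 0, gave thinned shares of 0% in both EAE libraries, against 0%, 0% and 5% in Healthy 1 to 3, where the last was 1 of 20 cells. Median depth of the mural cells before thinning was 2896 and 4395 UMIs in EAE, against 1514, 3447 and 4626 in Healthy. The fibroblast shares lay above the mural share of the same library in all 5 libraries.

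The lower Il33 was also found within subsets of fibroblasts that every library held. Among cells gated on Clec3b, Fmod and Igfbp2, Il33 had 72.7 and 90.8 CPM in EAE 1 and EAE 2, against 275, 195 and 271 in Healthy 1 to 3. The log2 fold change there was -1.67 (SE 0.26, adjusted p 0.00135 by edgeR), where 2.61% of genes were lower. Among cells gated on Itih5, Hsd11b1 and Edn3 the values were 178 and 87.6, against 518, 302 and 277, and the log2 fold change was -1.37 (SE 0.30, adjusted p 0.00236 by edgeR), where 5.16% of genes were lower. In both subsets each EAE library was below each Healthy library. These subset tests were added after other values had been seen. The only members higher there were Il6 (2.15, adjusted p 0.0128 by edgeR) and Tnfaip3 (2.96, adjusted p 6.06e-05 by edgeR) in the Itih5 subset, where 6.27% of genes were higher, and no member was higher in the Clec3b subset, where 2.85% of genes were.

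The subset tests were repeated without Healthy 1. Il33 was again lower, at -1.53 (log2, adjusted p 3.06e-07 by edgeR) in the Clec3b subset, where 5.22% of genes were lower, and at -1.24 (log2, adjusted p 3.94e-05 by edgeR) in the Itih5 subset, where 6.37% were. In both subsets Il6, Nfkb1 and Tnfaip3 were then higher, where 5.08% of genes were higher in the Clec3b subset and 7.5% in the Itih5 subset. The log2 fold changes in the Clec3b subset were 2.74 for Il6, 1.19 for Nfkb1 and 2.88 for Tnfaip3.

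Tnfrsf21 encodes death receptor 6, a member of the tumour necrosis factor receptor family that has been studied in T cell activation and in neurons and oligodendrocytes. In fibroblasts it had 38.8 and 36.8 CPM in EAE 1 and EAE 2, against 13.5, 5.66 and 14.0 in Healthy 1 to 3. The EAE libraries lay close together and above every Healthy library. The log2 fold change was 1.67 (SE 0.31, adjusted p 0.00378 by edgeR), and 1.83 without Healthy 1 (adjusted p 5.79e-08 by edgeR). It did not pass without EAE 1 (1.31), where EAE 2 is set against Healthy 3 alone.

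The level of Tnfrsf21 was also read within subsets of fibroblasts. In Healthy 1 to 3 the gene had 20.9, 26.6 and 30.8 CPM among cells gated on Clec3b, Fmod and Igfbp2, beside 10.3, 0.988 and 4.40 in the other fibroblasts. In EAE 1 and EAE 2 the same cells had 48.5 and 22.7, beside 37.1 and 39.0 in the others. The test within these cells gave 0.39 (log2, SE 0.40, adjusted p 0.675 by edgeR). Cells gated on Itih5, Hsd11b1 and Edn3 had 36.3 and 38.5 in EAE, against 36.6, 22.3 and 32.6 in Healthy, and the test gave 0.29 on the log2 scale (SE 0.38, adjusted p 0.708 by edgeR). Without Healthy 1 these tests gave 0.13 in the Clec3b subset (adjusted p 0.912 by edgeR) and 0.37 in the Itih5 subset (adjusted p 0.682 by edgeR). Healthy sums in these subsets rested on 4 to 16 UMIs per library, so a p that misses the threshold does not show equal levels. Whether the effect differed between the subsets and the other fibroblasts was not tested.

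Il6 encodes interleukin-6, which drives acute-phase genes and helps T cells to become Th17 cells. In fibroblasts it had 45.5 and 67.6 CPM in EAE 1 and EAE 2, against 58.0, 17.0 and 9.10 in Healthy 1 to 3. Healthy 1 lay between the EAE libraries, so the groups overlapped, and the log2 fold change of 1.12 (SE 0.85) did not pass (adjusted p 0.467 by edgeR). The value differed between the batches and with Healthy 1. Without Healthy 1 it was 2.03 (SE 0.27, adjusted p 4.74e-12 by edgeR). The fit without EAE 1, which sets EAE 2 against Healthy 3 alone, gave 2.81. The fits without EAE 2 and without Healthy 3 both set EAE 1 against Healthy 1 and Healthy 2. They gave 0.23 and 0.20 (adjusted p 0.913 by edgeR without Healthy 3). Few cells carried the signal. In Healthy 2, 14 of the 21 Il6 UMIs came from 1 cell, and in EAE 1 the cell with most held 32 of 335.

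Csf1, the growth factor of macrophages and microglia, had 63.5 and 52.8 CPM in EAE 1 and EAE 2, against 31.1, 21.8 and 41.3 in Healthy 1 to 3. Lif, a cytokine of the interleukin-6 family that signals through gp130, had 12.2 and 14.1, against 6.22, 1.62 and 6.30. Neither gene overlapped between the groups, and both fell just short of the threshold: the log2 fold change of Csf1 was 0.78 (SE 0.26, adjusted p 0.0559 by edgeR) and that of Lif was 1.36 (SE 0.43, adjusted p 0.0509 by edgeR). The Healthy values of Lif rested on 6, 2 and 9 UMIs, and 8 of the 9 in Healthy 3 came from 1 cell. Without EAE 1, where EAE 2 is set against Healthy 3 alone, Csf1 was 0.27 and Lif 1.07, and neither passed. Without Healthy 1 both passed, Csf1 at 0.79 (adjusted p 0.00427 by edgeR) and Lif at 1.63 (adjusted p 0.00606 by edgeR).

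Among the NF-kappaB subunits, Nfkb2 encodes p100, the precursor of p52, and Relb encodes its partner in the slower non-canonical branch of the pathway. Nfkb2 had 32.4 and 33.5 CPM in EAE 1 and EAE 2, against 28.0, 17.0 and 13.3 in Healthy 1 to 3. Relb had 49.8 and 75.3, against 39.4, 20.2 and 40.6. Both were above every Healthy library without passing the test, with log2 fold changes of 0.75 for Nfkb2 (SE 0.29, adjusted p 0.0953 by edgeR) and 0.73 for Relb (SE 0.26, adjusted p 0.0710 by edgeR). Nfkb1, which encodes p105, the precursor of the canonical subunit p50, had 60.4 and 191, against 92.2, 33.9 and 51.1. Its groups overlapped, and its log2 fold change was 0.72 (SE 0.69, adjusted p 0.562 by edgeR).

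Nfkb1, Nfkbia and Tnfaip3 were each higher in EAE 2 than in EAE 1 in every class that both held with at least 20 cells. Nfkb1 had 65.7 CPM in mural cells of EAE 1 and 314 in those of EAE 2. In lymphocyte-gated cells it had 97.9 in EAE 1 and 463 in EAE 2. In mural cells of EAE 1 and EAE 2, Nfkbia had 1435 and 2384 CPM, and Tnfaip3 had 103 and 178. The EAE libraries came from different batches. The EAE over Healthy ratio of Nfkb1 in fibroblasts was -0.06 on the log2 scale among first-batch libraries and 1.90 among second-batch ones.

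Nfkbia and Tnfaip3 are the members that restrain the pathway. Nfkbia encodes I-kappaB alpha, the main inhibitor that holds NF-kappaB in the cytoplasm, and had 996 and 1755 CPM in EAE 1 and EAE 2, against 1251, 828 and 1304 in Healthy 1 to 3. The groups overlapped, and the log2 fold change was 0.06 (SE 0.21, adjusted p 0.889 by edgeR), with a 95% interval from -0.36 to 0.47. Tnfaip3 encodes A20, a ubiquitin-editing enzyme that shuts off signalling from the tumour necrosis factor receptor, and had 77.4 and 165, against 36.3, 6.46 and 8.40. Both EAE libraries were above every Healthy library, and Healthy 1 was above the other Healthy libraries. The log2 fold change of 2.73, or 6.63-fold, had an SE of 0.89 and did not pass (p 0.0435, adjusted p 0.144 by edgeR). With 1 library left out it ranged from 1.80 to 4.21. It was 1.80 without Healthy 3 (adjusted p 0.312 by edgeR) and 1.83 without EAE 2, which both set EAE 1 against Healthy 1 and Healthy 2. It was 4.21 without EAE 1, which sets EAE 2 against Healthy 3 alone. After thinning, 6.74% and 13.6% of fibroblasts in EAE held a Tnfaip3 UMI, against 2.78%, 0.831% and 0.301% in Healthy.

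Without Healthy 1, 8 members were higher in EAE fibroblasts, all but Il33 and Nfkbia, where 14.9% of 11366 genes were higher. Il33 alone was lower, where 13.2% of genes were lower. Tnfaip3 was then higher by 3.92 (log2, SE 0.29, adjusted p 1.04e-38 by edgeR), and Nfkb1, Nfkb2 and Relb had 1.34, 1.04 and 0.97. Nfkbia stayed at 0.25 (adjusted p 0.231 by edgeR). Healthy 1 and Healthy 2 both had barcodes in common with EAE 1, 1239 and 683 before each was counted once, and the part of these barcodes in the values was not tested.

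**Figure D2:**
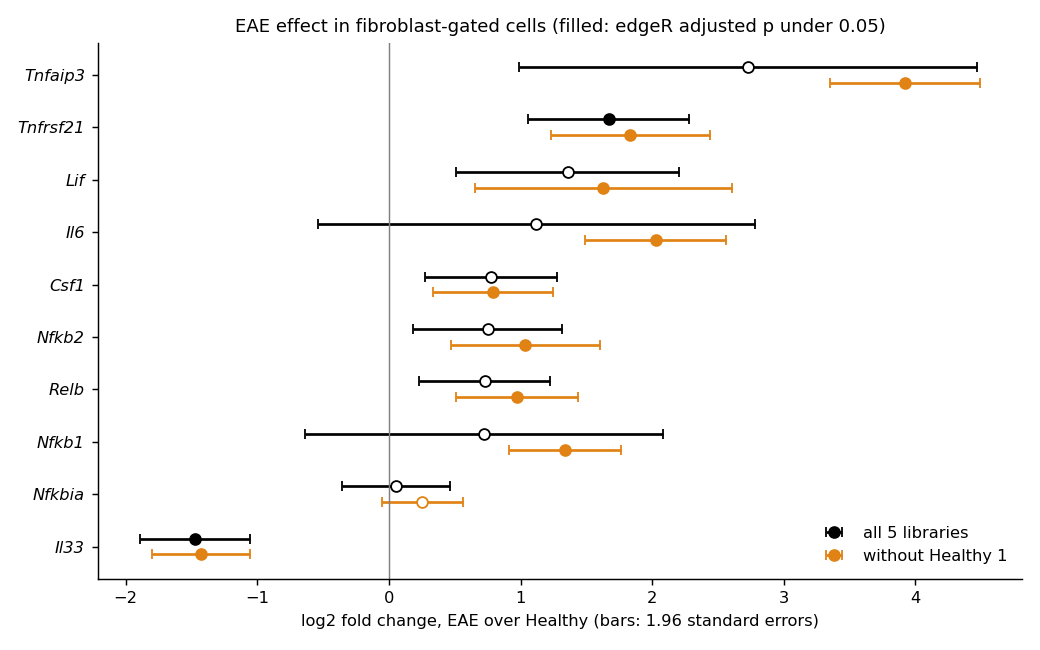
Log2 fold change of EAE over Healthy in fibroblast-gated cells (x axis, bars of 95% intervals) for the 10 members (y axis), with all 5 libraries in black and without Healthy 1 in orange, and filled points where the adjusted p was under 0.05. With all libraries only Tnfrsf21 (1.67) and Il33 (-1.47) were filled, and without Healthy 1 every member but Nfkbia (0.25) was filled.

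Other signals were read in the same cells. A list of 13 dissociation response genes, such as Fos and Egr1, had a summed level of 7910 and 11293 CPM in fibroblasts of EAE 1 and EAE 2, against 17005, 15346 and 15295 in Healthy 1 to 3, with all 13 detected in every library. Among the fibroblasts with the lower dissociation response, Il33 was lower, at -1.44 on the log2 scale (SE 0.24, adjusted p 0.00148 by edgeR) and Tnfaip3 was higher by 3.70 (SE 0.45, adjusted p 0.000238 by edgeR). Without Healthy 1 these values were -1.47 (adjusted p 0.000861 by edgeR) and 4.40 (adjusted p 6.45e-05 by edgeR). The share of all genes called among these cells is not given, so these calls have no background beside them. The 5 markers of osteoblasts summed to 194 and 10.4 in EAE, against 116, 4310 and 1.40 in Healthy, and were highest in Healthy 2. Of these, Dmp1 was at 0 in all 3 Healthy libraries, Sp7 in Healthy 1, and Bglap2 and Ibsp in Healthy 3. Without Healthy 2, Il33 was lower at -1.55 on the log2 scale (adjusted p 0.00470 by edgeR). The 4 chondrocyte markers summed to 3.26 and 6.94 CPM in EAE, against 46.6, 123 and 35.7 in Healthy, with Matn1 at 0 in every library, and their part in the results was not tested. The 6 endothelial markers summed to 201 and 189 CPM in fibroblasts of EAE 1 and EAE 2, against 91.2, 70.3 and 96.6 in Healthy 1 to 3, so both EAE libraries lay above every Healthy one. Cldn5 was at 0 in EAE 2 and in all 3 Healthy libraries, and Tek in Healthy 1 and Healthy 3. With barcodes that held any UMI of the endothelial, mural, myeloid or lymphocyte markers left out, Il33 was -1.42 (adjusted p 0.000423 by edgeR) and Tnfrsf21 was 1.66 (adjusted p 0.00619 by edgeR).

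Within EAE, levels were also compared across subsets of fibroblasts. Il6 was 4.13 and 2.44 times as high in cells gated on Lcn2 and Saa3 as in the other fibroblasts of EAE 1 and EAE 2. In cells gated on Tnc, Cxcl9 and Col7a1 it was 4.16 and 1.70 times as high. Lif was 1.86 and 1.98 times as high in the first subset and 3.40 and 2.14 times in the second. Csf1 was 1.14 and 1.23 times as high in the first subset and 0.97 and 0.49 times in the second. Across both subsets and libraries Nfkbia ranged from 0.96 to 1.19 times and Tnfaip3 from 0.98 to 1.41 times. Over all subsets with at least 20 cells the range was 0.65 to 1.19 times for Nfkbia and 0.18 to 1.5 times for Tnfaip3. The lowest values were in cells gated on Inmt, Cldn1 and Aldh1a3 for Nfkbia (0.65 and 0.78) and in cells gated on Osr2 and Gfra1 of EAE 2 for Tnfaip3 (0.18). The subsets overlap, their cells held more UMIs than the others, and ratios are per library with no test.

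Il33 followed another pattern within EAE. It had 35.1 and 21.6 CPM in cells gated on Igfbp3, Slc13a3 and Wnt4 of EAE 1 and EAE 2, beside 110 and 74.7 in the other fibroblasts. In Healthy 3 the same gate held 0 UMIs of Il33 in 21 cells, which allows up to 24.4 CPM, and in Healthy 1 it held 2 UMIs in 20 cells. Csf1 ran the other way, at 79.2 and 84.7 in these cells of EAE 1 and EAE 2, beside 59.0 and 48.2 in the others. In cells gated on Tnc, Cxcl9 and Col7a1, Il33 was 2.92 times as high as in the others in EAE 1 but 0.99 times in EAE 2.

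**Figure D3:**
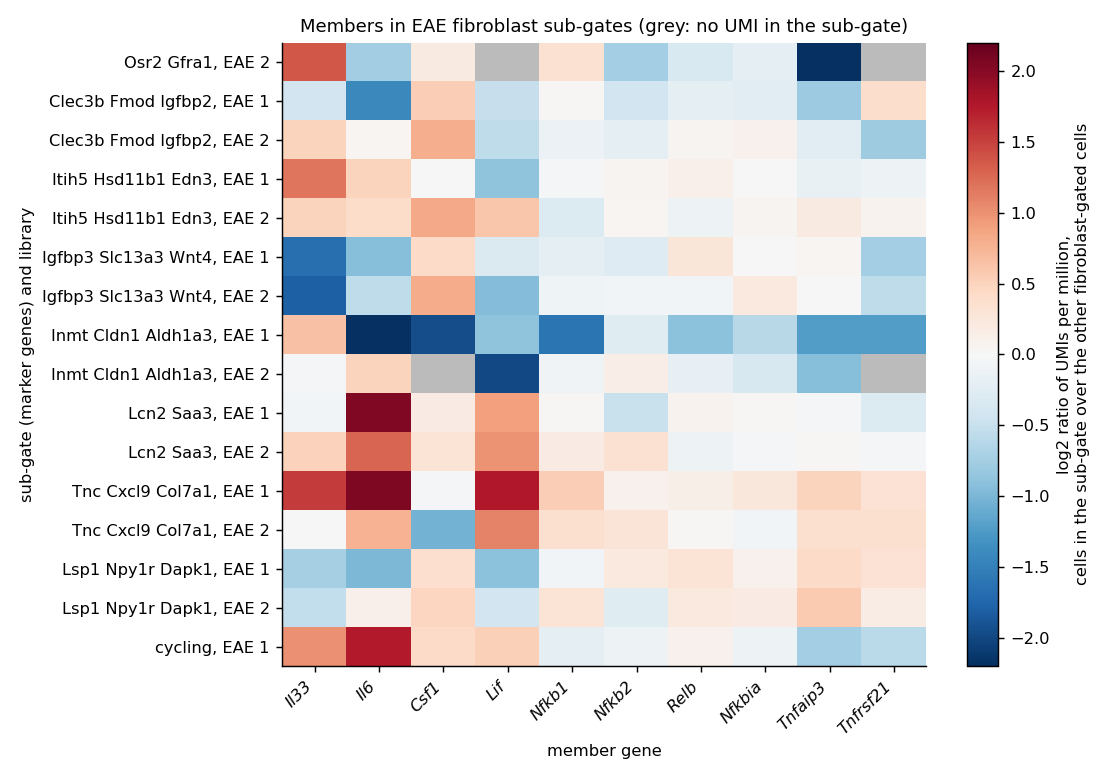
Log2 ratio of CPM in each fibroblast subset over the other fibroblasts of the same EAE library (colour, limited to 2.2 in each direction) for the members (x axis) and for the subsets with at least 20 cells, named by their marker genes (y axis). Il6 and Lif are red in the Lcn2 Saa3 and Tnc Cxcl9 Col7a1 rows of both libraries, Il33 is blue in both Igfbp3 Slc13a3 Wnt4 rows, and the Nfkbia column is pale.

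Mural cells of the same sort gave a second view of where each member was expressed. The mural gate (Rgs5, Kcnj8 and other vessel wall genes) held 63 and 27 cells of EAE 1 and EAE 2, against 19, 33 and 21 of Healthy 1 to 3, and Healthy 1 was left out for having fewer than 20. Over 7298 genes tested with library as a block, 8.26% were higher and 8.03% lower in fibroblasts than in mural cells. Of 9 members tested 1 was higher and 2 were lower, and Lif was too low to be tested.

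Il33 was higher in fibroblasts than in mural cells in all 4 libraries. Fibroblasts of EAE 1, EAE 2, Healthy 2 and Healthy 3 had 93.5, 68.0, 190 and 214 CPM, and mural cells of these libraries had 4.69, 13.7, 0 and 31.8. The 0 in Healthy 2 allows up to 25.3. Fibroblasts over mural cells gave 3.69 on the log2 scale (SE 0.47, adjusted p 6.36e-05 by edgeR).

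Il6 was lower in fibroblasts than in mural cells in all 4 libraries. Fibroblasts had 45.5, 67.6, 17.0 and 9.10 CPM in EAE 1, EAE 2, Healthy 2 and Healthy 3, and mural cells had 249, 608, 236 and 976. Fibroblasts over mural cells gave -3.70 on the log2 scale (SE 0.79, adjusted p 0.0480 by edgeR). It did not pass without EAE 1 (-4.23, adjusted p 0.0528), without EAE 2 (-3.94, adjusted p 0.196) or without Healthy 2 (-3.72, adjusted p 0.210). Of 63 and 27 mural cells of EAE 1 and EAE 2, 16 and 16 held an Il6 UMI. In Healthy 3, 7 of 21 mural cells held all 92 of its Il6 UMIs, and 1 of them held 34. The 13 dissociation response genes summed to 12510, 15392, 22949 and 23244 CPM in mural cells of EAE 1, EAE 2, Healthy 2 and Healthy 3. In fibroblasts of these libraries they summed to 7910, 11293, 15346 and 15295. Their part in the Il6 results was not tested.

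Tnfrsf21 was lower in fibroblasts than in mural cells, at 38.8, 36.8, 5.66 and 14.0 CPM in fibroblasts of EAE 1, EAE 2, Healthy 2 and Healthy 3, and at 117, 68.3, 84.2 and 10.6 in mural cells. Healthy 3, with 1 mural UMI, ran the other way. Fibroblasts over mural cells gave -1.51 (log2, SE 0.44, adjusted p 0.0317 by edgeR), and it did not pass without EAE 1 (-1.46, adjusted p 0.224), without Healthy 2 (-1.06, adjusted p 0.0996) or under DESeq2 (adjusted p 0.0602). The mural gate of EAE also held fibroblast RNA: fibroblast markers summed to 9363 and 14107 CPM in mural cells of EAE 1 and EAE 2, against 1532 and 2769 in those of Healthy 2 and Healthy 3. The part of that RNA in these results was not tested.

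**Figure D4:**
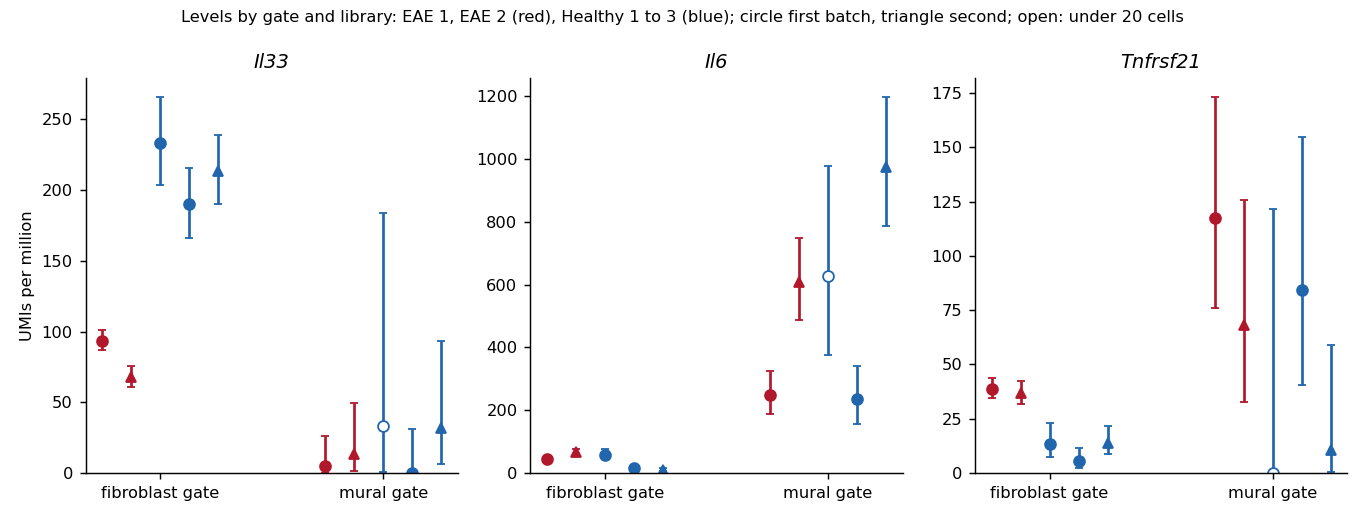
CPM (y axis) of Il33, Il6 and Tnfrsf21 in fibroblast and mural gates (x axis), 1 point per library from EAE 1 on the left to Healthy 3 on the right, with exact Poisson 95% intervals that cover counting error only, and open points for Healthy 1 with 19 mural cells. Il33 is near 0 in mural cells, while Il6 is at 236 to 976 there and at 67.6 or less in fibroblasts.

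The EAE effect on Il6 differed between the classes. Setting fibroblasts minus mural cells, the log2 difference of the EAE effects was 2.40 (SE 0.44, adjusted p 3.63e-05 by edgeR), where 1.17% of 8882 genes were higher. The difference rested on Healthy 3: without that library it was 0.79 (adjusted p 0.855 by edgeR). Under DESeq2 it did not pass either (adjusted p 0.175). None of the other 8 members tested passed, and their adjusted p ranged from 0.516 to 0.951. Over all sorted cells together, where classes are mixed, Il6 had an effect of -0.20 (log2, adjusted p 0.753 by edgeR).

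In all sorted cells, 9.06% of 10224 genes were higher and 9.65% lower in EAE, and 2 members were higher and 1 lower. Il33 was lower, at -1.57 on the log2 scale (SE 0.22, adjusted p 0.00100 by edgeR). Tnfrsf21 was higher by 1.28 (SE 0.25, adjusted p 0.00538 by edgeR) and Lif by 1.44 (SE 0.44, adjusted p 0.0441 by edgeR). Lif did not pass without EAE 1, which leaves EAE 2 against Healthy 3 alone. Nor did it pass without EAE 2 or without Healthy 3 (adjusted p 0.151 by edgeR), which both set EAE 1 against Healthy 1 and Healthy 2. It also did not pass without Healthy 2 (0.123), under DESeq2 (0.157) or with no batch term (0.0703). Tnfrsf21 did not pass without EAE 1 or without Healthy 3 (adjusted p 0.0795 by edgeR).

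Other classes were read in the EAE libraries. Lymphocyte-gated cells (31 in EAE 1 and 22 in EAE 2) had 211 and 463 CPM of Tnfaip3, beside 77.4 and 165 in fibroblasts of these libraries, and 1 and 0 UMIs of Il6. Myeloid-gated cells of EAE 1, 69 in number, had 95.9 of Il6 and 15.3 of Csf1. Of these cells 5 held an Il6 UMI, and 1 cell held 18 of the 25 UMIs. The 44 melanocyte-gated cells of EAE 1 held 654506 UMIs, and none of Il33, Il6, Lif or Tnfrsf21, which allows up to 4.58 CPM. A further gate on endothelial markers held 166 and 182 cells of EAE 1 and EAE 2, whose fibroblast markers summed to 30323 and 26807, so they are not called endothelial. They had 80.4 and 34.2 of Il33, and adding them to the fibroblasts changed its effect to -1.55 (log2, adjusted p 0.000652 by edgeR).

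The wider pathway was read from 7 lists of 97 genes, of which 73 were tested in fibroblasts: 15 were higher, 4 were lower and 54 did not pass. The background is that given above for the fibroblast gate. Without Healthy 1 the same 73 genes gave 30 higher and 4 lower, and 19 of the 19 called with all libraries passed again, against the background given above for that fit. Of 11 genes tested from the list named NF-kappaB restraint, 3 were higher and none lower, with a median log2 fold change of 0.47. A place on the list does not show that a gene only restrains the pathway. Nfkbie, which encodes I-kappaB epsilon, had 23.1 and 23.3 CPM in EAE 1 and EAE 2, against 7.25, 3.23 and 3.50 in Healthy 1 to 3 (log2 fold change 2.28, SE 0.37, adjusted p 0.00169 by edgeR). Bcl3, a nuclear I-kappaB protein, was higher by 1.37 (adjusted p 0.0104 by edgeR) and Tnip1, a partner of A20, by 1.28 (adjusted p 0.0256 by edgeR). Of 19 core and adaptor genes 1 was higher, Traf3 (1.26, adjusted p 0.0391 by edgeR), which holds the non-canonical branch in check. The core subunit genes did not pass, with log2 fold changes of -0.07 for Rela and 0.23 for Rel.

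Upstream of the pathway, 4 of 11 receptor genes were higher and none lower. Il1r1, the signalling receptor of interleukin-1, had 113 and 109 CPM in EAE, against 28.0, 26.7 and 23.8 in Healthy, which is 2.01 on the log2 scale (SE 0.22, adjusted p 0.000135 by edgeR). The decoy receptor gene Il1r2 was higher by 2.99 (adjusted p 0.000678 by edgeR) and the death receptor gene Fas by 2.36 (adjusted p 0.000726 by edgeR). Of 4 ligands tested 2 were higher and 1 lower. Il1rn, which encodes the antagonist of the interleukin-1 receptor, had 54.6 and 36.6, against 9.33, 6.46 and 4.20 (2.80, adjusted p 0.000113 by edgeR), and Tnfsf12, which encodes TWEAK, was lower at -1.18 (adjusted p 0.00712 by edgeR). Tnf, Il1a, Il1b and 4 further ligands were too low in fibroblasts to be tested.

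Of 8 other stromal cytokines 2 were higher and 1 lower. Tslp, an epithelial and stromal cytokine that acts on dendritic cells, had 25.7 and 29.7 CPM in EAE, against 5.18, 2.42 and 3.50 in Healthy (2.81, adjusted p 0.000439 by edgeR). Il18, like Il33 a member of the interleukin-1 family, was lower at -1.05 (adjusted p 0.0178 by edgeR). Of 7 genes tested from the list of receptors of the member cytokines, which also holds signalling genes such as Stat3, 1 was higher. It was the oncostatin M receptor gene Osmr (1.19, adjusted p 0.0187 by edgeR), and oncostatin M is not a member. Socs3, the feedback inhibitor of interleukin-6 signalling, was lower at -1.58 (adjusted p 0.0117 by edgeR), and so was Il6ra, the interleukin-6 receptor gene, at -0.95 (adjusted p 0.0339 by edgeR), although EAE 2 lay above Healthy 2 in CPM. The receptor of interleukin-33, Il1rl1, had 0 UMIs in fibroblasts of all 5 libraries, which allows up to 0.407 and 0.578 CPM in EAE 1 and EAE 2, against 3.11, 2.42 and 2.1 in Healthy 1 to 3. Of 13 genes known to respond to NF-kappaB 2 were higher, Cxcl5 (4.79, adjusted p 6.37e-05 by edgeR) and Sod2 (1.11, adjusted p 0.00650 by edgeR). Both EAE libraries were above all Healthy libraries in 6 of the 13, against 27.8% of all genes. Without Healthy 1, 9 of the 13 were higher. The 7 added, named after their values were seen, were Saa3 (7.69), Lcn2 (7.71), C3 (5.69), Cxcl2 (5.37), Ptgs2 (2.29), Ccl2 (1.71) and Cxcl1 (0.82). With all 5 libraries their adjusted p ranged from 0.238 to 0.798 by edgeR. Saa3 and Lcn2 were the genes by which Healthy 1 was set apart, so their rise without it was partly fixed by that choice. The count of 9 includes both and is no independent support.

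Several of these calls did not pass in fits with 1 library left out. The fit without EAE 1 sets EAE 2 against Healthy 3 alone. Fits without EAE 2 and without Healthy 3 both set EAE 1 against Healthy 1 and Healthy 2. Calls missed in both of these were thus missed in a shared comparison. Without EAE 1, Traf3 (1.10), Bcl3 (0.71), Tnip1 (1.76), Tnfsf12 (-1.23), Socs3 (-1.21), Il6ra (-0.61) and Sod2 (0.71) did not pass. Without EAE 2, Traf3 (1.39), Tnip1 (1.03), Il18 (-0.72) and Osmr (0.98) did not. Without Healthy 2, Traf3 (0.96), Bcl3 (1.17), Osmr (1.01) and Il6ra (-1.06) did not, and without Healthy 3 Traf3 (1.37), Tnip1 (0.99), Tnfsf12 (-1.13), Il18 (-0.74), Osmr (0.95) and Il6ra (-1.22) did not. The 3 further genes that passed, left out by the naming rule and named after their values were seen, were the receptor gene Il17ra (0.95), the ligand gene Tnfsf11 (4.22) and the cytokine gene Tnfsf13b (2.26). Il1r1, Nfkbie, Il1rn and Tslp passed in all of their alternatives, 20 to 22 in number.

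**Figure D5:**
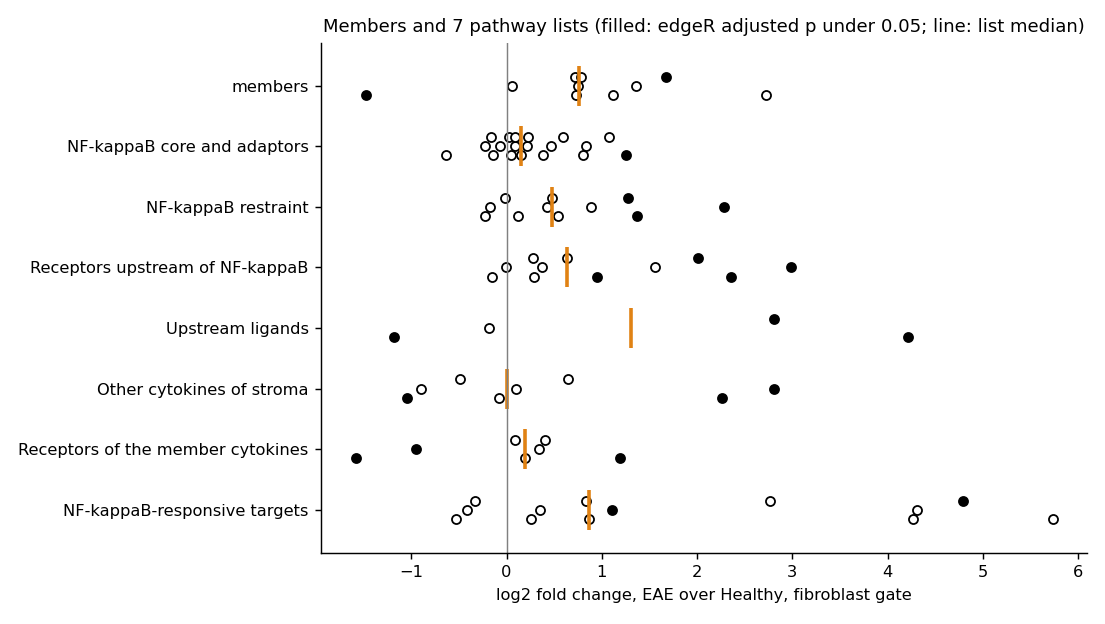
Log2 fold change of EAE over Healthy in fibroblast-gated cells (x axis) for the members and 7 pathway lists (y axis), 1 point per tested gene, filled where the adjusted p was under 0.05, with an orange line at the list's median. Receptors upstream of NF-kappaB have 4 of 11 points filled to the right and the restraint list 3 of 11, and the members' median is 0.76.

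The genes with profiles most like those of the 3 members that stood out between classes were looked up over 15 sums of class and library, as a description. Il33 was most like Htra3 (Pearson r 0.92), Sar1a (0.90) and Pi16 (0.90). Il6 was most like Camta1 (0.94), Mtus1 (0.93) and Sh3bgrl (0.91). Tnfrsf21 was most like Rbms2 (0.97), Bhlhe22 (0.97) and Slc7a2 (0.94). These sums share libraries and differ in depth.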

How the data were processed

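The authors deposited 5 tables of raw UMI counts per gene and cell barcode, 2 from EAE and 3 from Healthy. The tools were Cell Ranger 2.1.1 and Seurat 3 with the build mm10, per the submitters' processing notes, and per the labels' protocols the libraries were made with 10x Genomics v2 chemistry. Earlier barcode filters: not given in the sources used here. EAE 1 carries no number in its title. Batches were taken from labels with or without a lane.

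A barcode was kept if it had 200 or more genes detected and no more than 10% of its UMIs from mitochondrial genes, and no doublet caller was run. A gate needed at least 3 UMIs from at least 2 genes of a marker list, of which there were 8, and barcodes in the fibroblast gate had no other gate. Trbc2 of the lymphocyte list was not among the shared genes and was not used. Levels are CPM over the shared genes, not scaled by gene length, so genes are not ranked by level. Intervals are exact Poisson 95% intervals. A count of 0 is said to allow 3 counts per library, which is less than the upper end of its interval. For Il33 in mural cells of Healthy 2 these limits are 25.3 and 31.1 CPM.

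UMI sums were tested with edgeR 4.0.16 (TMM, its filter on low counts, batch as a term) in R 4.3.3, with Benjamini-Hochberg adjustment over all genes tested, and checked on simulated data. The standard error was taken as the absolute log2 effect divided by the root of the F statistic. EAE against Healthy was not tested in mural cells as planned, because Healthy 1 had 19 of the 20 cells required. The difference of effects between classes used the other 4 libraries and was added later. Alternatives included DESeq2 1.42.0. The members and lists were chosen with earlier results of these data known. Named genes are all members and, per list, the 3 largest rises and falls that passed and averaged 10 CPM or more, and Rela, Rel and Il1rl1 beside them were chosen after their values were seen.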

Additional observations from a re-analysis of the deposited data

Results flagged for a closer look

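The EAE effect on Il6 differed between fibroblasts and mural cells, by a test of the difference itself. Il6 had 45.5 and 67.6 CPM in fibroblasts of EAE 1 and EAE 2, against 17.0 and 9.10 in those of Healthy 2 and Healthy 3, and 249 and 608 in mural cells of EAE 1 and EAE 2, against 236 and 976 in those of Healthy 2 and Healthy 3. The log2 difference of the effects, fibroblasts minus mural cells, was 2.40 (SE 0.44, adjusted p 3.63e-05 by edgeR). The mural sum of Healthy 3 rested on 92 UMIs in 7 cells, and without Healthy 3 the difference was 0.79 (adjusted p 0.855 by edgeR). Under DESeq2 it did not pass (2.40, adjusted p 0.175). Mural cells had a higher sum of dissociation response genes than fibroblasts in each of these libraries, and its part in the difference was not tested.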

How the results depend on the processing

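No paired analysis was done, because the labels give no pairing of EAE with Healthy libraries. The fall of Il33 in fibroblasts kept its direction and passed in all 22 alternatives, and its excess over mural cells in all 8. In fibroblasts the members higher in EAE, 1 as reported, were 4 with library totals, 5 with no filter on low counts, 3 with barcodes as deposited or equal cells, and 2 with at least 1000 UMIs per cell or no UMI of other markers. With gates added after seeing the data they were 2 (endothelial-gated barcodes kept), 3 (low dissociation response), 0 (Clec3b subset) and 2 (Itih5 subset). Without Healthy 1 these last 3 gates gave 8, 3 and 3, and no share of all genes is given for the low dissociation response. With 1 library left out they ranged from 1 to 8, and the members lower stayed at 1. Among these alternatives the share of all genes called is given only for the fit without Healthy 1 and for the Clec3b and Itih5 subsets. The other member counts have no background beside them. The genes higher, 880 as reported, were 548 under DESeq2, 1514 with no filter on low counts, 586 with no batch term, 537 with barcodes as deposited, 529 with no UMI of other markers, 395 after thinning to 1000 UMIs, and 193 and 413 in the Clec3b and Itih5 subsets (360 in the Clec3b subset without Healthy 1). The genes lower, 935 as reported, were 580 under DESeq2, 541 with no UMI of other markers, 370 after thinning, and 177 and 340 in those subsets (370 and 500 without Healthy 1). Leaving out 1 library, they ranged from 331 to 1699 higher and from 315 to 1500 lower, both highest without Healthy 1.

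In all sorted cells the members higher, 2 as reported, were 1 under DESeq2 and with no batch term, 5 with no filter on low counts, and 0 to 6 with 1 library left out. The members lower in fibroblasts than in mural cells, 2 as reported, were 1 under DESeq2 and with no filter on low counts, and 0 to 2 with 1 library left out. No share of all genes called is given for these alternatives in all sorted cells or against mural cells, so these counts have no background. The Il6 difference between classes was 2.40 under DESeq2 (adjusted p 0.175), 1.57 with all 5 libraries (adjusted p 0.0925), and 0.79 to 3.82 with 1 library left out, lowest without Healthy 3.

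Directions that reversed belonged to members that did not pass. Fits without EAE 2 and without Healthy 3 set EAE 1 against the same Healthy libraries, so a reversal in both is not seen independently. In fibroblasts, with 1 library left out, Nfkb1 ranged from -0.16 (without Healthy 3) to 1.82, and was -0.13 without EAE 2. Nfkb2 was -0.24 in the Clec3b subset and -0.098 there without Healthy 1, and Lif was -0.097 in the Itih5 subset without Healthy 1. Nfkbia was -0.15 without EAE 2, -0.02 without Healthy 2, -0.18 without Healthy 3 and at most 0.35 (without EAE 1), and -0.063 and -0.066 in the Clec3b and Itih5 subsets. In all sorted cells Il6 ranged from -0.45 to 0.23, above 0 without EAE 1 (0.12) and Healthy 1. Nfkb1 ranged from -0.25 to 1.78, below 0 without EAE 2 (-0.24) and Healthy 3. Nfkbia ranged from -0.22 to 0.37, below 0 without EAE 2 (-0.22), Healthy 2 (-0.05) and Healthy 3. The causes were not tested. Depth limits Lif, the mural sums and Il6 in fibroblasts of Healthy 2, where single cells held much of a count.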
